A study of Homo sapiens with 8 samples.

Results

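The genes described here are the D-type cyclins and their partners at the G1 checkpoint, as read by microarray in 2 human multiple myeloma cell lines. The set of 10 genes comprised the cyclins CCND1, CCND2 and CCND3, the kinases CDK4 and CDK6, the inhibitors CDKN1B, CDKN2A, CDKN2B and CDKN2C, and the pocket protein RB1. A gene was measured where a transcript cluster of the array carried its symbol in the platform annotation. That held for 7 of the 10, of 14884 named genes in all. CDKN1B, CDKN2B and CDKN2C had no cluster with their symbol and are not analysed here. CCND2 was read by 2 clusters and each other gene by 1, and for CCND2 the cluster with the higher mean (16746992) stands for the gene unless the other is named.

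Cells leave G1 when D-type cyclins, made in response to outside signals, bind the kinases CDK4 or CDK6. The complexes phosphorylate the retinoblastoma protein RB1, which then releases E2F transcription factors, and these switch on the genes of DNA synthesis. Inhibitors of the INK4 family keep the kinases from their cyclins, and p27, the product of CDKN1B, binds the assembled complexes. Myeloma, a cancer of plasma cells, is known for raised expression of a D-type cyclin. In only a part of cases this comes through a translocation that carries a cyclin gene or a factor that acts on one.

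Total RNA came from MM1.S and NCI-H929, both established lines of that disease, and was read on GeneChip Human Gene 2.0 ST arrays. In either line the control was a scramble short hairpin RNA, and the treatment was a hairpin that targets SIRT6 (shSIRT6), a chromatin deacetylase that uses NAD. The 4 groups are therefore MM1.S with scramble, MM1.S with shSIRT6, NCI-H929 with scramble and NCI-H929 with shSIRT6, with 2 arrays each and 8 in all. Both lines and both constructs shared the same culture medium. The sources used here do not give the hairpin's sequence, its vector or the time after its delivery. No label tells whether the 2 arrays in each group stem from separate cultures, so p-values here reflect only the variation between arrays, which may be technical.

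Levels are the deposited log2 values, and differences are differences of group means on that scale with the standard error (SE) of limma's fit. A gene counts as changed where its p, adjusted by Benjamini and Hochberg's method across 12734 genes, was below 0.05. The genes tested had a mean above a log2 level of 3.045. All 7 measured genes passed that filter. The arrays' median levels lay between 3.88 and 3.97, and arrays of a group correlated at 0.989 to 0.992. SIRT6 itself had log2 levels of 6.09 and 5.88 in the MM1.S controls and of 5.60 and 5.78 under the hairpin. In NCI-H929 the controls had 6.53 and 6.97, the hairpin arrays 6.25 and 6.31. The hairpin arrays lay below the scramble arrays in both lines, but the differences of −0.30 ± 0.16 and −0.47 ± 0.16 did not pass (limma, adjusted p = 0.355 and 0.276), so the target gene checks the construct labels only weakly. Plasma cell markers, 7 of 10 with a cluster, had mean log2 levels of 9.37 to 9.69 on all arrays, and those of myeloid cells, 4 of 5, of 3.25 to 3.69. Among the plasma cell markers POU2AF1 was much lower, at 5.19 to 5.48, while each other one measured was at 7.96 or above.

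Cyclin D2 (CCND2) fell with the SIRT6 hairpin in NCI-H929. Its log2 level there was 7.89 and 7.84 in the controls and 6.86 and 6.71 under the hairpin. In MM1.S it was 10.40 and 10.42 in the controls and 10.50 and 10.58 under the hairpin. The hairpin arrays thus lay clearly below the control arrays in NCI-H929, and slightly above them in MM1.S, with no overlap in either line. The difference in NCI-H929 was −1.08 ± 0.099 (SE), a level 2.11-fold lower (95% interval 1.80 to 2.48; limma, adjusted p = 0.0484). It had the lowest p of all genes tested in that line and was the single gene called lower there (0.00785% of genes). The difference in MM1.S was 0.13 ± 0.099 (95% interval −0.10 to 0.36; adjusted p = 0.501).

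The call of CCND2 in NCI-H929 was close to the threshold. Leaving out any 1 of the 8 arrays ended it, with differences from −1.16 to −1.01 and adjusted p from 0.181 to 0.419. It was also lost without the filter on low levels (adjusted p = 0.0592), after a further quantile (−0.98, adjusted p = 0.0543) or cyclic loess normalization (−1.0, adjusted p = 0.0577), and when NCI-H929 was fitted alone (−1.08, adjusted p = 0.293). The stricter filter on levels and a variance prior that follows the level (adjusted p = 9.15e-06) kept it, so adjusted p ran from 9.15e-06 to 0.515 over the 17 alternatives while the difference stayed negative in all of them.

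**Figure D1:**
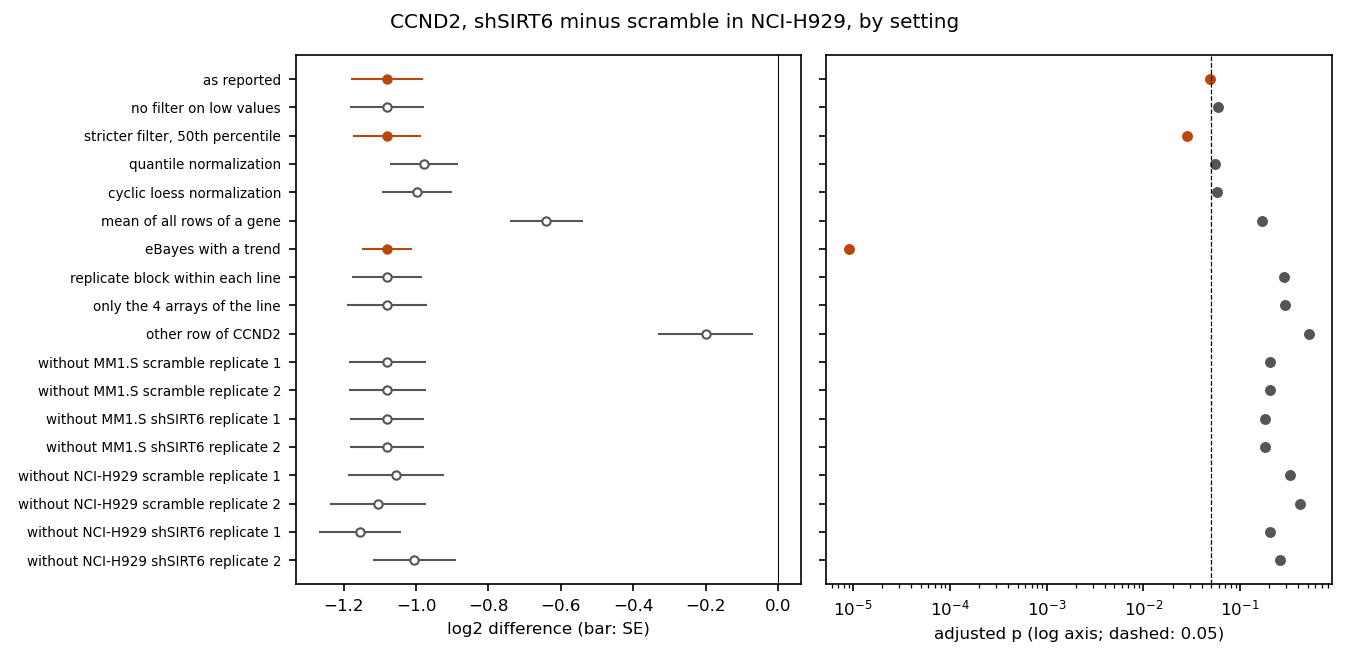
Difference of CCND2 between shSIRT6 and scramble in NCI-H929 under each way of processing: the left panel gives the log2 difference with its standard error, the right panel the adjusted p on a log axis with a dashed line at 0.05, and orange marks calls. The difference lies near −1.08 in most settings, while the adjusted p crosses 0.05 in 15 of 17 alternatives; the mean of both clusters gives −0.64 and the second cluster alone −0.20.

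The second CCND2 cluster (16760142) gave a smaller difference. Its log2 level in NCI-H929 was 4.81 and 4.68 in the controls and 4.48 and 4.61 under the hairpin. In MM1.S it was 6.38 and 6.70 in the controls and 6.78 and 6.70 under the hairpin. The arrays of the constructs did not overlap in NCI-H929 but met in MM1.S. The difference was −0.20 ± 0.13 in NCI-H929 (limma, adjusted p = 0.515) and 0.20 ± 0.13 in MM1.S (adjusted p = 0.434), so this cluster did not show the fall at the test's threshold. Averaging both clusters gave −0.64 in NCI-H929 (adjusted p = 0.168). Both clusters separated the lines in the same direction.

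The CCND2 clusters sit in different stretches of the array's numbering. Of the 20 named clusters nearest to the second one in the array's numbering, 17 belong to genes of the minus strand and 3 to genes of the plus strand. For the first CCND2 cluster 19 of 20 belong to the plus strand. In the RefSeq annotation an antisense RNA gene, CCND2-AS1, overlaps the start of CCND2. Which RNA the second cluster reads was not tested.

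The response of CCND2 differed between the lines. NCI-H929 minus MM1.S, its hairpin effect differed by −1.21 ± 0.14 (SE; 95% interval −1.54 to −0.88; limma, adjusted p = 0.0371). Over all genes 26 such differences were called (0.204%), and that of CCND2 was the single one in the negative direction (0.00785%). Leaving out any 1 array ended this call too, with differences from −1.29 to −1.14 and adjusted p from 0.0878 to 0.172. With the mean of both clusters the difference was −0.81 (adjusted p = 0.101), and with the second cluster −0.40 (adjusted p = 0.392).

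Between the lines, CCND2 was far lower in NCI-H929. With scramble the difference was −2.54 ± 0.099, a level 5.84-fold lower (95% interval 4.97 to 6.85). With shSIRT6, on the other 4 arrays, it was −3.76 ± 0.099 and 13.5-fold (95% interval 11.5 to 15.8). Both passed (limma, adjusted p = 2.69e-06 and 7.80e-07). From high to low the groups were MM1.S with shSIRT6, MM1.S with scramble, NCI-H929 with scramble and NCI-H929 with shSIRT6, and of these neighbours the MM1.S groups, whose arrays did not overlap, did not pass the test (adjusted p = 0.501). Line accounted for 94.3% of the variance of CCND2 over the 8 arrays, the different hairpin effect in each line for 3.48% and the spread within groups for 0.0756%, against medians of 44.7%, 4.21% and 20.4% over all genes tested. The second cluster was lower in NCI-H929 by −1.80 ± 0.13 with scramble and −2.20 ± 0.13 with shSIRT6 (adjusted p = 5.22e-05 and 2.20e-05).

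**Figure D2:**
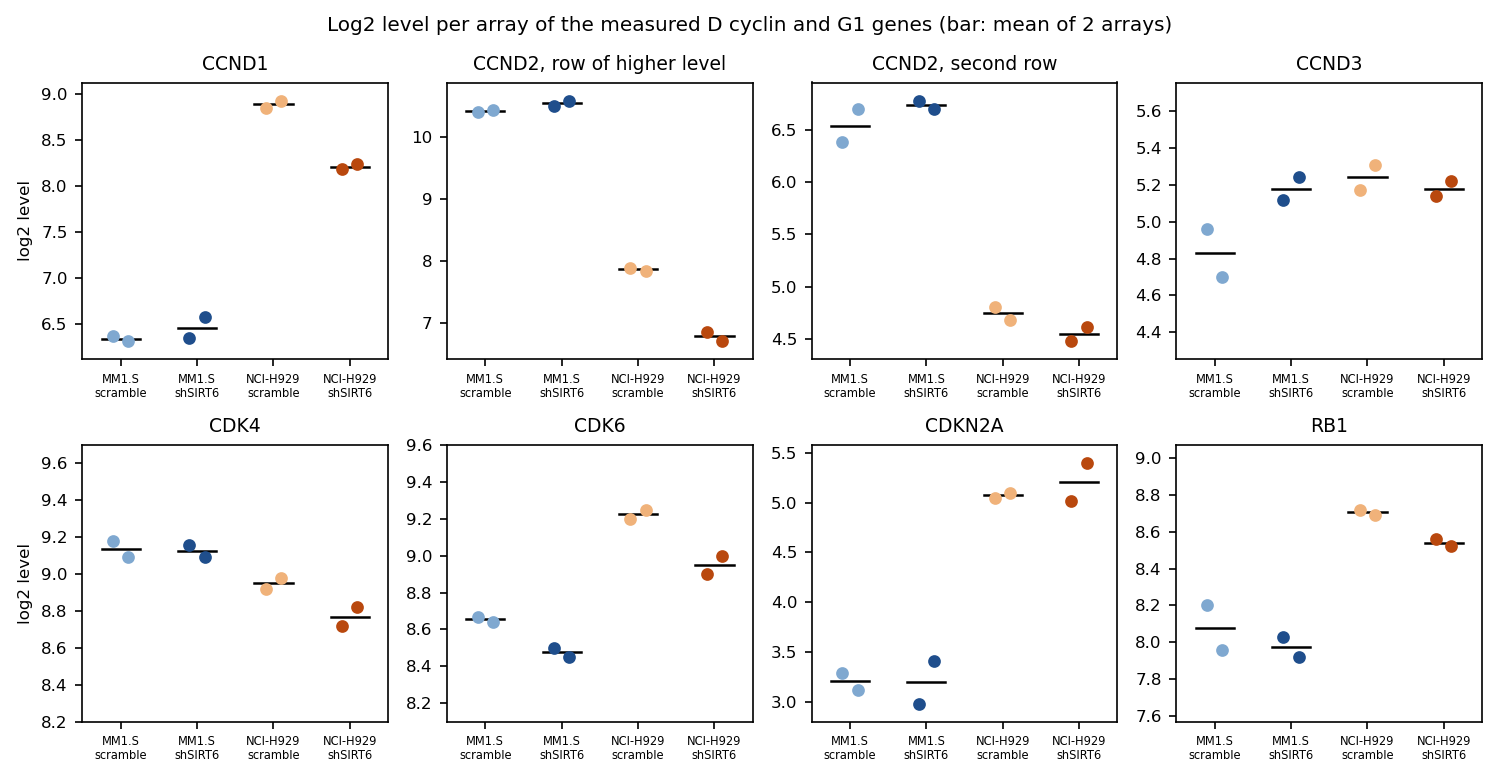
Log2 level of each measured gene on each array, with CCND2 shown for both of its clusters; points are arrays, bars are means of 2 arrays, and each panel has its own vertical axis that does not start at 0. CCND2 lies above 10 in MM1.S and below 8 in NCI-H929, where it is lowest with shSIRT6, while CCND1 runs the other way between the lines.

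Cyclin D1 (CCND1) had the opposite pattern between the lines. Its log2 level in MM1.S was 6.36 and 6.31 in the controls and 6.34 and 6.57 under the hairpin. The NCI-H929 arrays read 8.85 and 8.93 in the controls and 8.18 and 8.24 under the hairpin. All 4 NCI-H929 arrays lay above all 4 MM1.S arrays. The difference was 2.56 ± 0.11 with scramble, or 5.88-fold (95% interval 4.92 to 7.02), and 1.75 ± 0.11 with shSIRT6, or 3.38-fold (95% interval 2.83 to 4.03). Both passed (limma, adjusted p = 4.63e-06 and 2.69e-05).

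Within NCI-H929 both hairpin arrays of CCND1 lay below both control arrays, by −0.68 ± 0.11 (95% interval −0.94 to −0.42). The difference had rank 24 by p among all genes of that line but did not pass (limma, adjusted p = 0.177). In MM1.S it was 0.12 ± 0.11 with overlapping arrays (adjusted p = 0.579). The effects differed between the lines by −0.80 ± 0.15, which did not pass either (adjusted p = 0.116). With the variance prior that follows the level, the difference in NCI-H929 and that between the lines passed (adjusted p = 0.00481 and 0.00593).

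Cyclin D3 (CCND3) had log2 levels of 4.96 and 4.70 in the controls and 5.12 and 5.24 under the hairpin in MM1.S. In NCI-H929 they were 5.17 and 5.31 in the controls and 5.14 and 5.22 under the hairpin. The scramble arrays of MM1.S were the lowest and the other groups overlapped. Between the control arrays NCI-H929 was higher by 0.41 ± 0.12 (limma, adjusted p = 0.0315), and between the hairpin arrays the difference was 0.00 (95% interval −0.28 to 0.28). The call between control arrays was lost without scramble replicate 2 of MM1.S (0.28, adjusted p = 0.167), or scramble replicate 1 (0.48, adjusted p = 0.0618) or 2 (0.34, adjusted p = 0.161) of NCI-H929. It was also lost with the variance prior that follows the level (adjusted p = 0.0666). The hairpin effect was 0.35 ± 0.12 in MM1.S and −0.06 ± 0.12 in NCI-H929, neither of which passed (adjusted p = 0.181 and 0.847). CCND3 had the largest share of variance within groups among the measured genes, 20.4%, which was also the median over all genes tested (20.4%).

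The kinase CDK4, which the D cyclins activate, had log2 levels of 9.18 and 9.09 in the controls and 9.16 and 9.09 under the hairpin in MM1.S. In NCI-H929 they were 8.92 and 8.98 in the controls and 8.72 and 8.82 under the hairpin. The MM1.S groups overlapped, and in NCI-H929 the hairpin arrays lay a little lower. The hairpin effect was −0.01 ± 0.097 (95% interval −0.24 to 0.22) in MM1.S and −0.18 ± 0.097 (95% interval −0.41 to 0.05) in NCI-H929 (limma, adjusted p = 0.967 and 0.429). NCI-H929 was lower than MM1.S by −0.36 ± 0.097 between the hairpin arrays (adjusted p = 0.0229), and the difference between the control arrays was −0.18 ± 0.097 (adjusted p = 0.182; 0.0406 with the variance prior that follows the level). The former call was lost without shSIRT6 replicate 1 (adjusted p = 0.104) or 2 (adjusted p = 0.0559) of MM1.S or shSIRT6 replicate 1 of NCI-H929 (adjusted p = 0.100).

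CDK6, the other kinase of the D cyclins, had log2 levels of 8.67 and 8.64 in the controls and 8.50 and 8.45 under the hairpin in MM1.S. In NCI-H929 they were 9.20 and 9.25 in the controls and 8.90 and 9.0 under the hairpin. In each line the hairpin arrays were below the control arrays, with no overlap. The differences of −0.18 ± 0.093 and −0.28 ± 0.093 did not pass (limma, adjusted p = 0.331 and 0.274), nor did their mean of −0.23 ± 0.066 (adjusted p = 0.128; 0.0132 with the variance prior that follows the level). CDK6 was higher in NCI-H929 by 0.57 ± 0.093 with scramble and 0.47 ± 0.093 with shSIRT6 (adjusted p = 0.00217 and 0.00525). The construct took 15.6% of its variance over the arrays, against a median of 6.80% over all genes.

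The promoters of both kinases are given to show the sequence from which these transcripts start, as the 100 bases before the RefSeq start site (GRCh38.p14), read 5′ to 3′ on the gene's strand.
CDK4 (chr12:57752311-57752410, minus strand): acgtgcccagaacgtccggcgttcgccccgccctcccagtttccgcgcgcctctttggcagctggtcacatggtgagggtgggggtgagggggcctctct
CDK6 (chr7:92836574-92836673, minus strand): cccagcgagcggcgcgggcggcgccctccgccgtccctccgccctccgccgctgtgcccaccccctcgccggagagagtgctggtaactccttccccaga
No part is in capitals because neither window held any of the 4 spellings of the E2F motif searched below.

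CDKN2A encodes the INK4 inhibitor p16INK4a and, in another reading frame, ARF, and 1 cluster stands for both. Its log2 level in MM1.S was 3.29 and 3.12 in the controls and 2.98 and 3.41 under the hairpin. In NCI-H929 it was 5.05 and 5.10 in the controls and 5.02 and 5.40 under the hairpin. All NCI-H929 arrays lay above all MM1.S arrays, and the constructs overlapped in both lines. The MM1.S levels were near the filter level of 3.045, above 34.8% and 33.7% of all clusters in the group means, so the difference between the lines depends on a level that may not be above background. It was 1.87 ± 0.18 with scramble and 2.02 ± 0.18 with shSIRT6 (limma, adjusted p = 0.000174 and 0.000120). The hairpin effects were −0.01 ± 0.18 in MM1.S and 0.14 ± 0.18 in NCI-H929 (adjusted p = 0.983 and 0.758).

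Neighbours of CDKN2A at its locus on chromosome 9 were looked up after the annotation was seen, and are given without a test. CDKN2B-AS1, an RNA antisense to CDKN2B, had log2 levels of 3.39 and 3.13 in the controls and 3.14 and 3.15 under the hairpin in MM1.S. In NCI-H929 it had 5.30 and 4.85 in the controls and 4.81 and 4.54 under the hairpin, above every MM1.S array. MTAP, an enzyme of methionine salvage, ran from 6.98 to 7.32 in MM1.S and from 7.64 to 7.83 in NCI-H929. CDKN2A-AS1, an RNA antisense to CDKN2A, overlapped between the lines, with 3.24 to 3.42 in MM1.S and 3.25 to 3.69 in NCI-H929. DMRTA1, a gene of the same region, was lower in every NCI-H929 array, with 4.46 to 4.92 against 5.64 to 6.51 in MM1.S.

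RB1, the pocket protein that the D cyclin kinases phosphorylate, had log2 levels of 8.20 and 7.96 in the controls and 8.03 and 7.92 under the hairpin in MM1.S. In NCI-H929 they were 8.72 and 8.69 in the controls and 8.56 and 8.52 under the hairpin. The lines did not overlap, and the constructs overlapped in MM1.S only. RB1 was higher in NCI-H929 by 0.62 ± 0.11 with scramble and 0.57 ± 0.11 with shSIRT6 (limma, adjusted p = 0.00334 and 0.00545). The hairpin effects of −0.11 ± 0.11 in MM1.S and −0.17 ± 0.11 in NCI-H929 did not pass (adjusted p = 0.638 and 0.526).

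Across the measured genes, the lines differed far more than the constructs. With scramble, 6 of 7 were called between the lines, 5 higher and 1 lower in NCI-H929, where 38.3% of all genes were called. All 7 had arrays that did not overlap, as had 67.9% of all genes. Between the hairpin arrays 6 of 7 were called, 4 higher and 2 lower, against 37.9% of all genes, and 6 did not overlap, against 65.7%. The median size of the difference between lines was 0.62 over the 7 genes and 0.29 over all genes with scramble.

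For the hairpin in MM1.S, 0 of the 7 were called, against 1.33% of all genes (limma), and 1, CCND3, had an unadjusted p below 0.05, against 19.6%. Of the 7, 3 had arrays that did not overlap, against 50.7% of all genes. In NCI-H929 1 of 7 was called, against 0.0236% of all genes, and 3 had an unadjusted p below 0.05, against 14.5%. There 5 did not overlap, against 46.6%. The median difference there was −0.18 over the 7 genes and −0.05 over all genes, and in MM1.S −0.01 and 0.01. A further quantile or cyclic loess normalization brought the median of the 7 in NCI-H929 to −0.11 and −0.10, and turned that in MM1.S to 0.06 and 0.03. For the mean effect over both lines 0 of 7 were called (limma), against 0.0864% of all genes, and 3 had an unadjusted p below 0.05, against 21.3%, with CCND2 nearest at −0.47 ± 0.070 (adjusted p = 0.0665). The line comparisons and the hairpin comparisons share arrays, so they are not independent of each other.

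**Figure D3:**
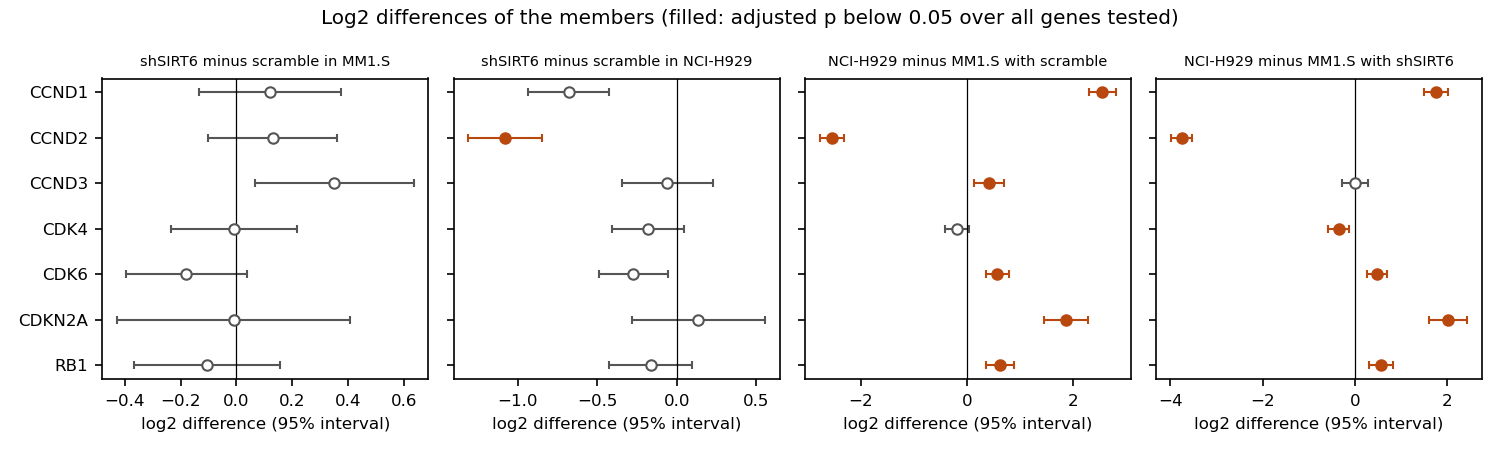
Log2 difference of each of the 7 measured genes in 4 comparisons, with 95% intervals from limma; filled orange points have an adjusted p below 0.05 over all genes tested, and the horizontal scales differ between panels. In the hairpin panels CCND2 in NCI-H929 is the only filled point, and in the line panels 6 of 7 points are filled.

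**Figure D4:**
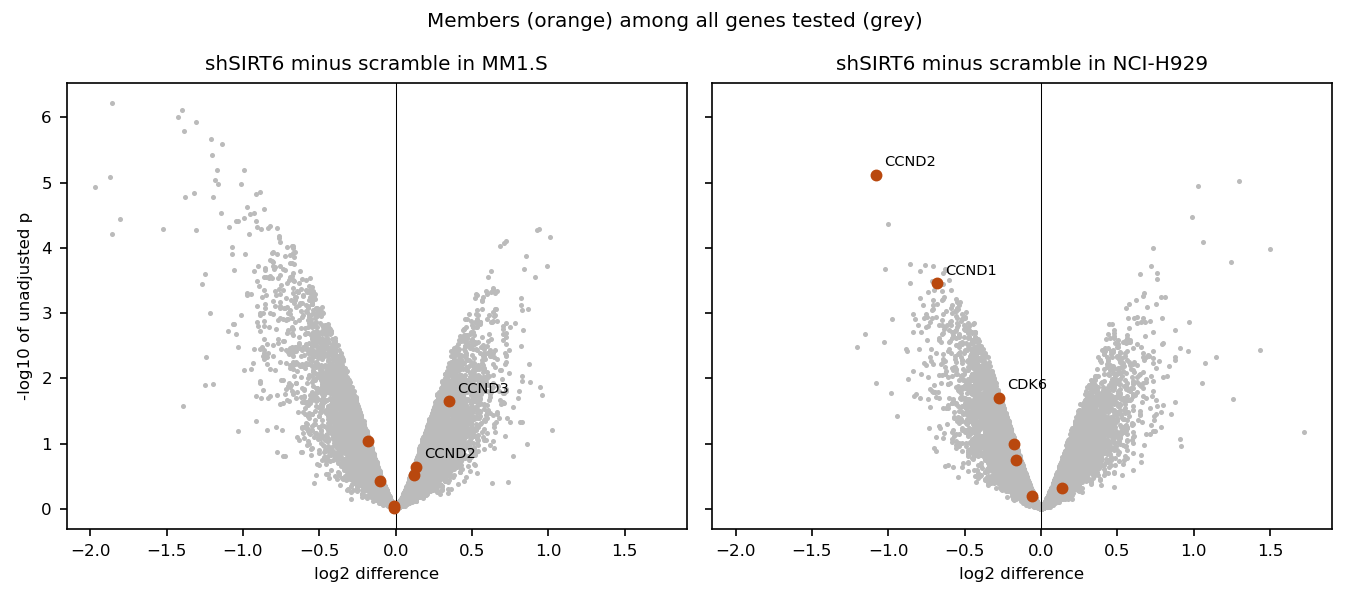
Log2 difference between shSIRT6 and scramble against the −log10 of the unadjusted p for all 12734 genes tested (grey) and the 7 genes described here (orange), by line. In NCI-H929 CCND2 is the highest point and CCND1 has rank 24, while in MM1.S the 7 genes lie among the bulk of all genes.

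The pathway around these genes was read through lists of known members. Of 16 E2F factors, their partners and related pocket proteins, 13 were tested. None was called for the hairpin in MM1.S or NCI-H929 (limma, 0 in each, against 1.33% and 0.0236% of all genes). Before adjustment 2 and 6 of 13 had a p below 0.05, as had 19.6% and 14.5% of all genes. In NCI-H929 12 of 13 were negative, with a median of −0.28 (−0.19 after quantile normalization), and in MM1.S 5 were, with a median of 0.06, against −0.05 and 0.01 over all genes. E2F2, an activator of S phase genes that is named here after its values were seen, had differences of 0.55 ± 0.11 in MM1.S and −0.28 ± 0.11 in NCI-H929 (adjusted p = 0.0674 and 0.320).

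Between the lines with scramble, 1 gene of that list was higher and 6 were lower in NCI-H929, or 7 of 13 called where 38.3% of all genes were. E2F7, a repressor of E2F targets, was lower by −1.91 ± 0.14 and TFDP1, the usual partner of E2F factors, by −0.99 ± 0.15. LIN9, of the complex that represses and later activates cell cycle genes, was lower by −0.58 ± 0.11, and TFDP2, a further partner, was higher by 0.73 ± 0.13 (limma, adjusted p from 6.22e-05 to 0.00430). With shSIRT6 1 was higher and 7 were lower (37.9% of all genes called).

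Of 14 genes of cyclins E and A, CDK2 and their regulators, which act after the D cyclins, 9 were tested. None was called for the hairpin (limma, 0 in each line; an unadjusted p below 0.05 was reached by 2 of 9 in MM1.S and 7 of 9 in NCI-H929, and by 19.6% and 14.5% of all genes). In NCI-H929 8 of 9 were negative, with a median of −0.36, and in MM1.S 5 of 9, with a median of −0.06. After a further quantile or cyclic loess normalization 7 of 9 were negative in NCI-H929, with medians of −0.28 and −0.29. Between the control arrays 0 were higher and 2 lower in NCI-H929, with 38.3% of all genes called. They were CCNE1 (cyclin E1, −0.62 ± 0.13) and CKS2, a subunit of cyclin-dependent kinases (−0.56 ± 0.11; limma, adjusted p = 0.00654 and 0.00592). Between the hairpin arrays 1 was higher and 6 were lower (37.9% of all genes called).

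Of 19 genes listed for the turnover and assembly of D cyclin complexes, 13 were tested and none was called for the hairpin (limma, 0 in each line; unadjusted, 2 in MM1.S and 4 in NCI-H929 had a p below 0.05, against 19.6% and 14.5% of all genes). The medians were 0.03 in MM1.S and −0.17 in NCI-H929, the latter −0.08 and −0.09 after quantile and cyclic loess normalization. Between the control arrays 3 were higher and 4 lower in NCI-H929, or 7 of 13 called against 38.3% of all genes. USP2, a deubiquitinase known to stabilise cyclin D1, was higher by 2.10 ± 0.14 and CDC37, a chaperone partner that loads CDK4, by 0.99 ± 0.093. CUL1 and CUL4B, scaffolds of ubiquitin ligases, were lower by −1.07 ± 0.090 and −0.93 ± 0.12 (limma, adjusted p from 3.43e-05 to 0.000682). The USP2 cluster used read 3.63 and 3.75 in the MM1.S controls, below the medians of those arrays, and 5.66 and 5.93 in NCI-H929. A second USP2 cluster did not separate the lines, with 4.34 and 4.16 in the MM1.S controls and 4.39 and 3.93 in those of NCI-H929. With shSIRT6 4 were higher and 6 lower (37.9% of all genes called). TRIP13, listed here although it is known as an ATPase of the mitotic checkpoint, is named after its values were seen. Within this list it had the lowest p for the hairpin in NCI-H929, at −0.60 ± 0.095 (limma, adjusted p = 0.177).

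Of 20 classical E2F targets, genes of DNA synthesis and licensing, 16 were tested. In NCI-H929 all 16 were negative, with a median of −0.36 against −0.05 over all genes, and in MM1.S 7 were, with a median of 0.01. After a further quantile or cyclic loess normalization all 16 stayed negative in NCI-H929. Their medians were then −0.27 and −0.28, against −0.01 and −0.02 over all genes. None was called for the hairpin (limma, 0 in each line). At an unadjusted p below 0.05 there were 3 of 16 in MM1.S and 11 of 16 in NCI-H929, where 19.6% and 14.5% of all genes had one. TYMS (thymidylate synthase) had log2 levels of 9.78 and 9.75 in the controls and 9.30 and 9.25 under the hairpin in NCI-H929. In MM1.S it had 10.47 and 10.36 in the controls and 10.45 and 10.44 under the hairpin. The hairpin arrays were thus lower in NCI-H929 only, by −0.49 ± 0.093 (adjusted p = 0.185), and overlapped the controls in MM1.S. GINS2, a subunit of the replicative helicase, had the largest difference of the list in NCI-H929, −0.71 ± 0.13, and is named after its values were seen.

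Between the control arrays 3 of the 16 E2F targets were higher and 7 lower in NCI-H929, where 38.3% of all genes were called. PCNA, the sliding clamp of DNA polymerase, was lower by −1.33 ± 0.096, TYMS by −0.65 ± 0.093 and RRM1, a subunit of ribonucleotide reductase, by −0.61 ± 0.091. CDT1, a licensing factor, was higher by 1.61 ± 0.14 (limma, adjusted p from 4.92e-05 to 0.00145). With shSIRT6 1 was higher and 12 were lower (37.9% of all genes called).

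**Figure D5:**
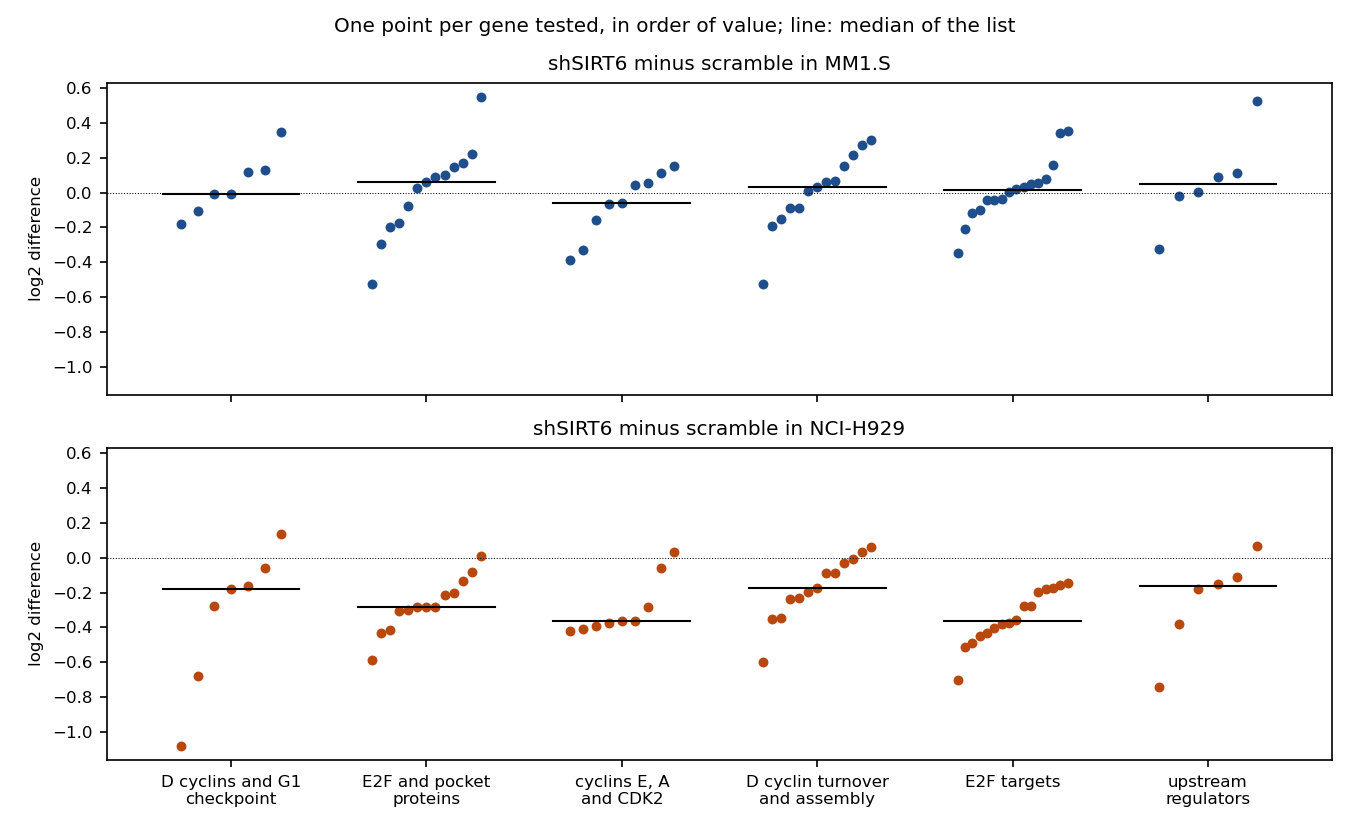
Log2 difference between shSIRT6 and scramble for each tested gene of the measured set and of 5 pathway lists, in order of value, with a line at each list's median; the upper panel is MM1.S, the lower NCI-H929, and the list marked upstream regulators also holds CCR1, a MAF target. In NCI-H929 the 16 E2F targets all lie below 0 around a median of −0.36, while in MM1.S they lie on both sides of 0; of all points, CCND2 in NCI-H929 is the only one called.

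The search for the E2F motif was chosen after these values were seen. It used 4 spellings, TTTCCCGC, TTTGGCGC, TTTCGCGC and TTTGCCGC, on both strands of the 250 bases before each RefSeq start site. Of 27305 genes with a promoter sequence, 928 held at least 1 match (3.40%). Of the E2F targets 9 of 17 with a sequence held one (52.9%), and of the E2F factors and pocket proteins 6 of 14 (42.9%). The targets were listed because they are known as E2F targets, so a high share was likely in advance. A link between the motif and the hairpin effect was not tested. Of the D cyclin and G1 genes themselves 0 of 8 with a sequence did, and CCND1 and CCND2 were not in the sequence table. Stretches of 60 bases around the match are shown for 3 targets and E2F2, to let their sites be compared, with the match in capitals and each sequence read 5′ to 3′ on the gene's strand (GRCh38.p14).
E2F2 (chr1:23531242-23531301, minus strand): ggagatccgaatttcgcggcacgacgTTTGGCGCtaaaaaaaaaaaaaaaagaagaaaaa
TYMS (chr18:657588-657647, plus strand): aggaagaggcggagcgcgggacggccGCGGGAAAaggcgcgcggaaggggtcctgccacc
GINS2 (chr16:85688955-85689014, minus strand): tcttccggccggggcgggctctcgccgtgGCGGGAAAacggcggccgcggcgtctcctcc
PCNA (chr20:5126648-5126707, minus strand): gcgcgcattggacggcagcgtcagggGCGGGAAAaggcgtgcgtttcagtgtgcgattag
TYMS, GINS2 and PCNA hold the same spelling, GCGGGAAA, which is TTTCCCGC on the other strand, and E2F2 holds TTTGGCGC. A match is a description of the letters and not a site of binding.

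Of 9 genes listed around the control of D cyclins in myeloma, translocation partners, transcription factors and MAF targets, 6 were tested. MAF, a transcription factor known to activate CCND2 and placed under an immunoglobulin enhancer in MM1.S, had log2 levels of 9.77 and 9.65 in the controls and 9.85 and 9.53 under the hairpin there. In NCI-H929 it had 8.27 and 8.24 in the controls and 8.07 and 8.08 under the hairpin. MAF was thus lower in every NCI-H929 array, as CCND2 was. A link between MAF and the level of CCND2 was not tested, and 2 lines cannot tell it apart from their other differences. The differences between lines were −1.46 ± 0.12 with scramble and −1.61 ± 0.12 with shSIRT6 (limma, adjusted p = 0.000108 and 6.51e-05). The hairpin effects on MAF were −0.02 ± 0.12 in MM1.S and −0.18 ± 0.12 in NCI-H929 (adjusted p = 0.949 and 0.534).

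The growth factor receptor FGFR3 and the histone methyltransferase NSD2 share a translocation known in NCI-H929 and were higher there by 2.04 ± 0.13 and 1.38 ± 0.093 with scramble. MYC, a transcription factor that drives growth, was higher there by 0.81 ± 0.094 (limma, adjusted p from 2.93e-05 to 0.000430). Between the control arrays 3 of the 6 were called higher and 1 lower in NCI-H929, where 38.3% of all genes were called. Between the hairpin arrays 4 were higher and 2 lower (37.9% of all genes called). None was called for the hairpin (limma, 0 in each line; 2 in each had an unadjusted p below 0.05).

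CCR1, a chemokine receptor known as a target of MAF, as CCND2 is, and not as a regulator of D cyclins, is described after its values were seen. Its log2 level in MM1.S was 9.21 and 9.06 in the controls and 9.59 and 9.73 under the hairpin. In NCI-H929 it was 8.76 and 8.83 in the controls and 8.19 and 7.92 under the hairpin. The hairpin arrays were higher in MM1.S and lower in NCI-H929, with no overlap in either line. The differences of 0.53 ± 0.13 and −0.74 ± 0.13 did not pass (limma, adjusted p = 0.0889 and 0.185), nor did the difference between them, −1.26 ± 0.18 (adjusted p = 0.0611).

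The genes most like CCND2 were those with the smallest Euclidean distance between levels centred on their mean over the 8 arrays. They were PRKD3, a protein kinase D (distance 0.797, r = 0.986 over 8 arrays), PEG10, a retrotransposon-derived gene (0.797, r = 0.988), and CDCA7, a cell division associated gene (0.821, r = 0.984). These correlations describe the difference between the lines, which all 8 arrays share. The genes were picked on the same arrays, so differences like those of CCND2 were likely in advance. All 3 were lower in NCI-H929 with scramble, by −2.92 ± 0.094, −3.04 ± 0.16 and −3.18 ± 0.16. Their hairpin effects in NCI-H929 were −0.35 ± 0.094, −0.45 ± 0.16 and −0.43 ± 0.16, none of which passed (limma, adjusted p = 0.220, 0.278 and 0.293).

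Nearest to CCND1 were MT1X, a metallothionein (distance 0.384, r = 0.997), BCL2A1, an inhibitor of apoptosis (0.469, r = 0.991), and ANO8, of the anoctamin family (0.469, r = 0.997). MT1X was higher in NCI-H929 with scramble by 2.69 ± 0.15, BCL2A1 by 2.50 ± 0.10 and ANO8 by 2.10 ± 0.10. Their hairpin effects in NCI-H929 were −0.51 ± 0.15, −0.53 ± 0.10 and −0.55 ± 0.10, and that of CCND1 was −0.68 ± 0.11. None passed (limma, adjusted p from 0.177 to 0.238).

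Markers of other cell types were read beside these results. Of 7 markers of T and NK cells 5 were measured, and their mean log2 level in NCI-H929 was 4.22 to 4.35 with scramble and 4.56 to 4.57 with shSIRT6. All 5 were positive there and none was called (limma, 0, against 0.0236% of all genes), with CD4 at 0.55 ± 0.21 the largest. Before adjustment 1 had a p below 0.05, as had 14.5% of all genes. In MM1.S the mean level was 4.30 to 4.33 with scramble and 4.31 to 4.42 with shSIRT6. The part of these markers in the results on CCND2 and the E2F targets in NCI-H929 was not tested. Of 6 B cell markers 3 were measured, at mean levels of 4.77 to 4.97 in MM1.S and 3.75 to 4.04 in NCI-H929. That gap came from CR2, at 6.22 to 6.77 in MM1.S and 3.59 to 3.97 in NCI-H929, while PAX5 and BLK overlapped between the lines.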

How the data were processed

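The values are log2 expression levels per transcript cluster as deposited by the authors, and per the submitters' processing notes they rest on build hg19, the Transcriptome Analysis Console and RMA. RMA usually corrects background, quantile normalizes and summarises probes. The sources used here give neither its variant nor the versions. No scanner intensity was used, so background could not be judged per probe. The table has 48226 clusters, of which 16098 carry 1 symbol in the platform annotation and 32128 are unnamed here. All 8 columns were used and 0 other columns were left out.

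Where a gene had several clusters, that of highest mean was kept, and the test took genes whose mean exceeded the 30th percentile over clusters. One model of 4 group means was fitted to the 8 arrays with limma 3.58.1 (R 4.3.3; lmFit, eBayes; 4 residual and 3.43 prior degrees of freedom). An exact permutation test of 2 arrays against 2 cannot give a two-sided p below 0.333, so the tests rest on limma. Named genes were the measured genes, SIRT6, up to 4 called genes per pathway list and comparison by lowest p, and the 3 genes nearest to CCND2 and to CCND1, with exceptions said to be so. The genes, lists and comparisons were chosen with earlier results of these data known. The lists of T and NK, B, plasma, myeloid and stromal cell markers served as checks. Of 5 stromal markers 2 had a cluster and 1, VIM, was tested. VIM had log2 levels of 8.29 and 8.33 in the MM1.S controls and 9.69 and 9.52 in those of NCI-H929. It was called higher in NCI-H929, by 1.295 with scramble and 1.435 with shSIRT6 (limma), and was not called for the hairpin in either line. The other, DCN, lay at 1.99 to 2.38 on all arrays, below the filter. Whether the level of VIM reflects stromal cells was not tested. The fitting code was tested on simulated data. Promoter sequences are RefSeq's (GRCh38.p14), matched by symbol.

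Alternatives were no filter, a filter at the 50th percentile, a further quantile or cyclic loess normalization, the mean of a gene's clusters, a variance prior with a trend, the replicate number as a block, each line alone, the other CCND2 cluster, and each array left out in turn.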

Additional observations from a re-analysis of the deposited data

Results flagged for a closer look

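The effect of the SIRT6 hairpin on CCND2 differed between the lines by a test of that difference, at −1.21 ± 0.14 on the log2 scale, NCI-H929 minus MM1.S (limma, Benjamini-Hochberg adjusted p = 0.0371). Both NCI-H929 hairpin arrays were below their controls and both MM1.S hairpin arrays slightly above theirs. The difference did not pass in 11 of 16 alternatives, among them each of the 8 fits with 1 array left out. The second CCND2 cluster gave −0.40 ± 0.19 (adjusted p = 0.392).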

How the results depend on the processing

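Of 42 pairs of gene and comparison, 14 were called, and these calls were lost in 34 of 215 alternatives. The other pairs gained a call in 7 of 435, and no called value changed sign (0). For the hairpin in NCI-H929, where 1 gene was called, the count was 0 without the filter, after quantile or cyclic loess normalization, with the mean of clusters and with the line fitted alone, 2 with a trended prior (CCND2 and CCND1), and 0 to 0 with any 1 array left out. For the difference between the lines' hairpin effects, also 1, it was 0 with the mean of clusters, 2 with the trended prior and 0 to 0 with 1 array left out. For the mean effect, 0, it was 1 with the stricter filter and 3 with the trended prior. The counts between lines stayed at 5 or 6, though with the trended prior CDK4 replaced CCND3 between the control arrays, and that in MM1.S stayed at 0. Fewer arrays leave fewer residual degrees of freedom; for the other changes the cause was not tested.

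Same-numbered arrays shared little deviation over the genes tested (correlations of −0.00108 to 0.0767). Whether the numbers mark paired cultures or batches is not given by the labels and cannot be told from these correlations. With the replicate number as a block, 0 genes were called in NCI-H929 (CCND2 adjusted p = 0.284) and 0 for the difference between effects (0.230), and CCND3 between the control arrays was lost (0.0605).

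Over all genes, the count for the hairpin in MM1.S was 169, against 314 with the stricter filter, 953 with the trended prior, 0 with the block or the line alone, and 0 to 84 with 1 array left out. In NCI-H929 it was 3, and 3 with the stricter filter, against 194 with the trended prior and 0 in the other settings named for that line. For the difference it was 26, against 430 with the trended prior, 0 with the block and 2 to 6 with 1 array left out. For the mean effect it was 11, against 98 with the stricter filter, 911 with the trended prior, 4 and 5 after quantile and cyclic loess normalization, 0 with the block and 0 with 1 array left out. The number of arrays limits the precision.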
